A study of Mus musculus with 6 samples.

Results

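The 10 genes described here encode enzymes that remove superoxide and hydrogen peroxide or that supply the reducing power for doing so. They are the peroxiredoxins Prdx1, Prdx3, Prdx4 and Prdx5, thioredoxin (Txn1) and its reductase (Txnrd1), the superoxide dismutases Sod1 and Sod2, the catalytic subunit of glutamate-cysteine ligase (Gclc) and the quinone reductase Nqo1. They were picked by gene symbol, and all 10 were found among the 24927 rows of the deposited tables. The data are RNA-seq values from 6 libraries made from whole liver of C57BL/6 mice, a common inbred strain. All are labelled male, 10 months old and on a chow diet with free access to food and water. Per the labels, 3 libraries are wild type and 3 are Cdkl3-/-, and the series describes Cdkl3, a cyclin-dependent kinase-like gene, as knocked out in the liver. How the knockout was made, and whether it is limited to hepatocytes, is not given in the sources used here. The series asks how the liver transcriptome differs after loss of Cdkl3.

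Peroxiredoxins reduce hydrogen peroxide with a reactive cysteine, and most of them are returned to the reduced state by thioredoxin, which is in turn reduced by thioredoxin reductase with NADPH. Superoxide dismutases turn superoxide into hydrogen peroxide, SOD1 mainly in the cytosol and SOD2 in the mitochondrial matrix. Gclc with its modifier subunit Gclm makes the first intermediate of glutathione. The transcription factor NRF2, encoded by Nfe2l2, binds antioxidant response elements near many of these genes, and the liver, which oxidises fatty acids and foreign compounds, is a tissue in which this defence is prominent.

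The promoters of the members are shown first, since NRF2 is a known regulator of several of these genes. RefSeq promoter windows (GRCm38.p6, 250 bases before to 50 bases after a start site, 300 bases each) were found for 9 of the 10 members, in 11 windows, that is for all but Gclc. The core of the antioxidant response element, TGACNNNGC, was searched on both strands. It occurred in 3 of the 11 windows, those of Prdx1 and Sod1 and the second of 3 windows of Txnrd1, and in 12.4% of all 32851 promoter windows of the same length. The matches are printed on the strand of the gene, where they read in reverse complement, with the match in capitals. Gclm, which is not a member but is the partner of Gclc, is added because its window also held a match. The stretches lie at chr4:116685349-116685598 (Prdx1, bases -250 to -1 from the start site), chr10:82859088-82859148 (Txnrd1, -118 to -58), chr16:90220680-90220740 (Sod1, -82 to -22) and chr3:122245397-122245457 (Gclm, -160 to -100), all on the plus strand.
Prdx1: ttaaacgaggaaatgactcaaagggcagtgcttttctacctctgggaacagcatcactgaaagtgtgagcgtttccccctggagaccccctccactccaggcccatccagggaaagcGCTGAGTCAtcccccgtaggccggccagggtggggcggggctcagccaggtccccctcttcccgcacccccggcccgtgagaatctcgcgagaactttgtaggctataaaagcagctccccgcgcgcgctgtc
Txnrd1: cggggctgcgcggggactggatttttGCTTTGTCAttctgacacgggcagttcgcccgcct
Sod1: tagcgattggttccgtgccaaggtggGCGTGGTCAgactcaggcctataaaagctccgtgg
Gclm: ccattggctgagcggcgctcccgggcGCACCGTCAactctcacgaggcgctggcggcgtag
The match in the Prdx1 promoter reads TGACTCAGC on the opposite strand, from base -133 to base -125. It overlaps a match to TGACTCA, the site of the AP-1 factors, which occurred in 5.2% of all windows and a second time in the Prdx1 window, from base -237 to base -231. The windows of Prdx3, Prdx4, Prdx5, Txn1, Sod2 and Nqo1 held no match to either sequence. Bases outside the windows were not searched, so these genes may have such elements farther from the start site. On GRCm38, the build of the annotation used here and not that of the authors, the other members lie at chr19:60864051-60874556 (Prdx3), chrX:155323918-155340754 (Prdx4), chr19:6906697-6910106 (Prdx5), chr4:57943373-57956411 (Txn1) and chr10:82833951-82897712 (Txnrd1). Sod1 lies at chr16:90220754-90226329, Sod2 at chr17:13006846-13040063, Gclc at chr9:77754535-77794485 and Nqo1 at chr8:107388225-107403206. A match is a description of the letters in a window, and binding was not measured.

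Some facts of the whole series bear on every value below. The steps of the low values gave a depth of about 20460000 to 48610000 counted reads or read pairs per library. Cdkl3 measured 0.0883 to 0.166 FPKM (a fragment count scaled by exon length and library size) in the wild type-labelled libraries and 0.0761 to 0.195 FPKM in the knockout-labelled ones, so the targeted transcript did not separate the groups. Xist and 4 Y-linked genes did separate them although all mice are labelled male. Xist measured 192 to 292 FPKM in the wild type-labelled libraries and at most 0.0273 FPKM in the knockout-labelled ones, and Ddx3y measured at most 0.207 FPKM against 38.2 to 50.8 FPKM. Labelled genotype and sex as shown by these genes cannot be told apart in any comparison here. Mitochondrially encoded transcripts made up 70.47% to 73.88% of the summed FPKM in the wild type-labelled libraries and 63.17% to 70.11% in the knockout-labelled ones. All other genes share the rest, and the part of this in their differences was not tested. Log2(FPKM + 1) was fitted with limma over the 5673 genes that reached 1 FPKM in 3 or more libraries, and a gene was called at a Benjamini-Hochberg adjusted p under 0.05. Of these genes 54.1% were called in either direction. Relative to the wild type-labelled libraries, 33.7% were higher and 20.4% lower, that is 1911 and 1157 genes, or 1443 and 1891 after each library was centred on its median, which lowers every log2 difference by 0.28.

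Most of the members were higher in the knockout-labelled libraries, and the mitochondrial superoxide dismutase was lower. Of the 10 members, 7 rose (Prdx1, Prdx3, Prdx4, Txn1, Txnrd1, Gclc and Nqo1), 1 fell (Sod2), 1 was tested and not called (Sod1) and 1 was under the filter (Prdx5). Nqo1 reached 1 FPKM in the 3 knockout-labelled libraries alone, and passed the filter through them, while 8 members were at 1 FPKM or more in all 6 libraries. The groups did not overlap for 8 of the 10 members, and they did not overlap for 63.9% of all tested genes. Among genes with a mean of at least 1 FPKM over the 6 libraries, a filter that does not look at the groups, the median log2 difference was 1.62 over the 8 members that passed and 0.11 over all 5532 genes. The members were proposed with results of these data known, so these counts are a description. Without knockout replicate 1, which held kidney transcripts (given below), 7 members were called higher and 1 lower.

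**Figure D1:**
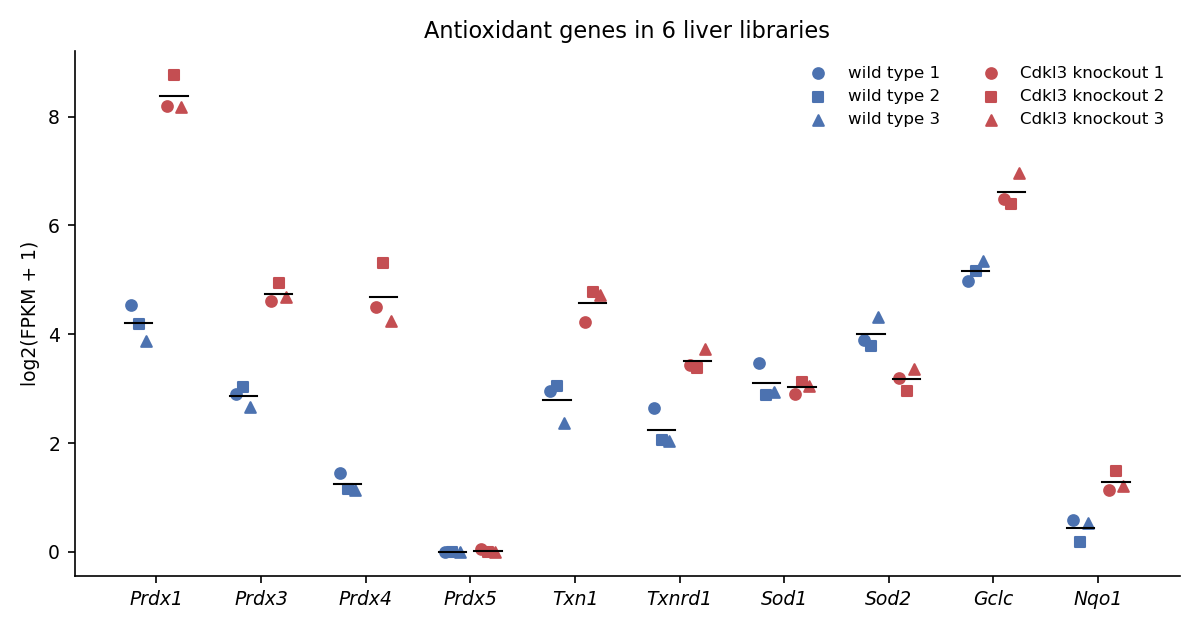
Log2(FPKM + 1) of the 10 members (x axis) in each of the 6 libraries, with wild type in blue, Cdkl3 knockout in red, a marker shape for each replicate number and a black line for the mean of 3. Prdx1 lies highest in the knockout libraries and Prdx5 lies at or near 0 in all 6.

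Among the peroxiredoxins, Prdx1, the abundant cytosolic enzyme (chromosome 4, 116685544 to 116700822, plus strand), differed most. It measured 22.1, 17.3 and 13.7 FPKM in the wild type-labelled libraries and 292, 436 and 289 FPKM in the knockout-labelled ones. The lowest library labelled knockout thus lay more than 10 times above the highest labelled wild type, and knockout replicate 2 stood above the other two. The means were 17.7 ± 4.19 and 339 ± 83.7 FPKM (SD, n = 3), a ratio of 19.1, with a log2 difference of 4.18 and a 95% interval from 3.63 to 4.73 (limma adjusted p = 3.1e-05). The values rest on 856 to 2562 recovered reads in the wild type-labelled libraries and on 21797 to 52435 in the knockout-labelled ones.

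Prdx4, the endoplasmic reticulum peroxiredoxin that passes oxidising equivalents to protein disulfide isomerases, had the next largest difference. It measured 1.73, 1.23 and 1.21 FPKM in the wild type-labelled libraries and 21.6, 38.6 and 18 FPKM in the knockout-labelled ones. All 3 wild type-labelled libraries were close to the filter, and knockout replicate 2 was again the highest. On the log2 scale the difference was 3.44 (SE 0.28, limma adjusted p = 0.00011) and the ratio of means 18.8. Prdx4 lies on the X chromosome, so its difference is one between libraries that also differ in Xist.

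Prdx3, the peroxiredoxin of the mitochondrial matrix, rose less. It measured 6.5, 7.17 and 5.36 FPKM in the wild type-labelled libraries and 23.5, 29.6 and 24.6 FPKM in the knockout-labelled ones. The groups stood apart by more than 3 times at their nearest values, with little spread within either. Its log2 difference was 1.88 (SE 0.17, limma adjusted p = 0.00017), and it was 1.10 after a per-library trend on GC content and exon length was subtracted (adjusted p = 0.0011). Within each library, Prdx1 exceeded Prdx3 by 3.4, 2.42 and 2.57 times in the wild type-labelled libraries and by 12.4, 14.7 and 11.8 times in the knockout-labelled ones. Such a ratio does not depend on the scaling of a library, and here the groups did not overlap. This ratio was compared together with 3 other gene pairs, all chosen after their values were seen. A two-sided exact permutation test gave p = 0.1 (adjusted over the 4 ratios 0.13), where 3 against 3 libraries cannot go below 0.1.

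Prdx5, a peroxiredoxin found in mitochondria, peroxisomes and cytosol, was practically absent from these tables. It was listed at 0 in 5 libraries and at 0.0381 FPKM, or 2 reads, in knockout replicate 1. In the 5 libraries a count of 0 allows up to 3 reads, which is 0.029 to 0.069 FPKM, for counting error only. The gene was under the filter and was not tested. Its exons overlap those of Trmt112 on the opposite strand, and whether the counting used strand is not given in the sources used here. Prdx2, the other cytosolic form, was also low, with 0 to 0.0091 FPKM in the wild type-labelled libraries and 0.0267 to 0.124 FPKM in the knockout-labelled ones. The row of Prdx6 lies in the chromosome 1 block, whose symbols were not usable. Of the summed FPKM of Prdx1 to Prdx5, Prdx1 made up 67.3% to 72.9% in the wild type-labelled libraries and 86.4% to 87.1% in the knockout-labelled ones.

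**Figure D2:**
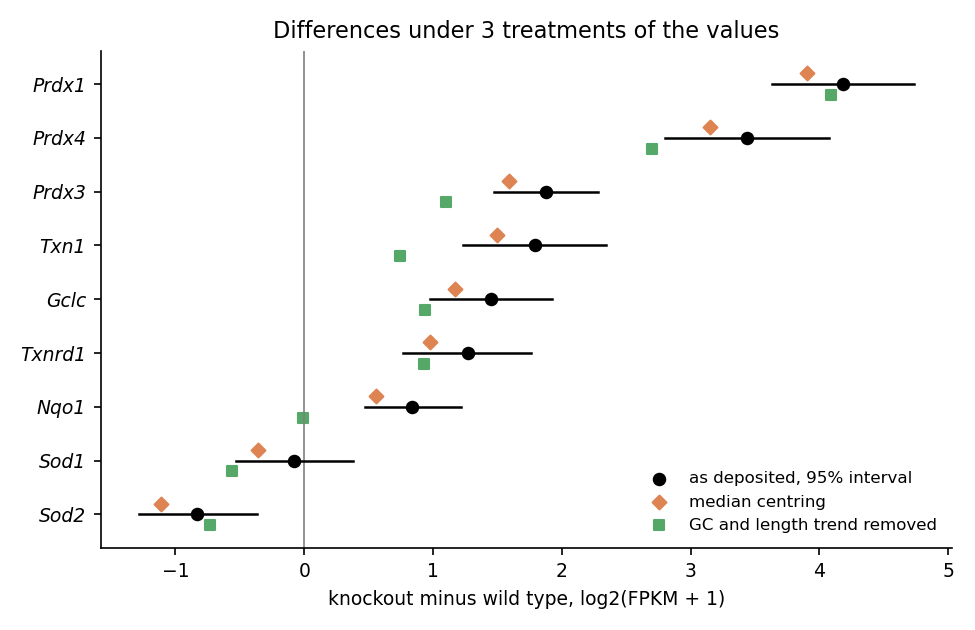
Log2 difference, knockout minus wild type on the log2(FPKM + 1) scale (x axis), of the 9 tested members (y axis), as deposited with 95% limma intervals (black), after median centring (orange diamonds) and after subtraction of a per-library trend on GC and exon length (green squares). Prdx1 stays near 4 under all 3 treatments, whereas Nqo1 moves from 0.84 to -0.01 when the trend is removed.

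Thioredoxin and its reductase rose together. Txn1, the cytosolic thioredoxin, measured 6.73, 7.26 and 4.14 FPKM in the wild type-labelled libraries and 17.7, 26.3 and 25.4 FPKM in the knockout-labelled ones. Knockout replicate 1 was the lowest of its group and still more than 2 times above any library labelled wild type. The log2 difference was 1.79 (SE 0.24, limma adjusted p = 0.0007), and 0.74 after the trend on GC content and length was removed (adjusted p = 0.02). Txnrd1, the selenoprotein that reduces thioredoxin with NADPH, measured 5.24, 3.15 and 3.1 FPKM in the wild type-labelled libraries and 9.79, 9.37 and 12.2 FPKM in the knockout-labelled ones. Its groups did not overlap, and its log2 difference was 1.27 (SE 0.21, limma adjusted p = 0.0019). The ratio of Txn1 to Txnrd1 was 1.28 to 2.31 in the wild type-labelled libraries and 1.81 to 2.81 in the knockout-labelled ones, which overlap (exact permutation p = 0.3, adjusted over 4 ratios 0.3). M21 lists 1 pseudogene named after thioredoxin, Txn-ps1, and how reads shared with such copies were counted is not given in the sources used here.

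The superoxide dismutases did not follow the peroxiredoxins. Sod1, the copper-zinc enzyme, measured 10.1, 6.4 and 6.7 FPKM in the wild type-labelled libraries and 6.49, 7.67 and 7.31 FPKM in the knockout-labelled ones. The knockout values lie within the range of the wild type ones, wild type replicate 1 being the highest of all. The log2 difference was -0.08, with a 95% interval from -0.53 to 0.38 (limma adjusted p = 0.77). Sod1 was called lower, at -0.56, after the trend on GC content and length was removed (adjusted p = 0.023), and the sign was positive, 0.11, without wild type replicate 1 (adjusted p = 0.6).

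Sod2, the manganese enzyme of the mitochondrial matrix, fell. It measured 13.9, 12.8 and 18.8 FPKM in the wild type-labelled libraries and 8.18, 6.74 and 9.28 FPKM in the knockout-labelled ones. The groups did not overlap. Sod2 had a log2 difference of -0.83, with a 95% interval from -1.28 to -0.37 (limma adjusted p = 0.0089), and it ran from -1.11 to -0.67 over all alternatives. Prdx3, which acts in the same compartment on the product of SOD2, thus went the other way. The ratio of Sod2 to Sod1 within a library was 1.39, 2 and 2.8 in the wild type-labelled libraries and 1.26, 0.88 and 1.27 in the knockout-labelled ones (exact permutation p = 0.1, adjusted over 4 ratios 0.13). A ratio within a library does not remove a trend on GC content and length. After removal of that trend the log2 differences were -0.73 for Sod2 and -0.56 for Sod1. These lie closer together than the -0.83 and -0.08 of the values as deposited.

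In glutathione synthesis the subunits of glutamate-cysteine ligase went in opposite directions. Gclc, the catalytic subunit, measured 30.4, 35 and 39.8 FPKM in the wild type-labelled libraries and 89.1, 82.7 and 123 FPKM in the knockout-labelled ones. Every library labelled knockout was more than 2 times above the highest labelled wild type. Gclc had a log2 difference of 1.45 (SE 0.21, limma adjusted p = 0.00085), and 0.94 after the trend on GC content and length was removed (adjusted p = 0.0095). Gclm, the modifier subunit that lowers the feedback inhibition of the enzyme by glutathione, measured 78.2, 100 and 122 FPKM in the wild type-labelled libraries and 61.3, 49 and 61.2 FPKM in the knockout-labelled ones. Its groups did not overlap, and its log2 difference was -0.78 (SE 0.21, limma adjusted p = 0.014). The call of Gclm was lost without wild type replicate 3 (-0.63, adjusted p = 0.05) and without knockout replicate 2 (-0.68, adjusted p = 0.054). The ratio of Gclc to Gclm was 0.388, 0.35 and 0.326 in the wild type-labelled libraries and 1.45, 1.69 and 2.02 in the knockout-labelled ones. Gclm was thus the higher of the pair in all 3 wild type-labelled libraries and Gclc in all 3 labelled knockout, with a mean ratio of 0.354 ± 0.0317 against 1.72 ± 0.284 (SD, n = 3; exact permutation p = 0.1, adjusted over 4 ratios 0.13).

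**Figure D3:**
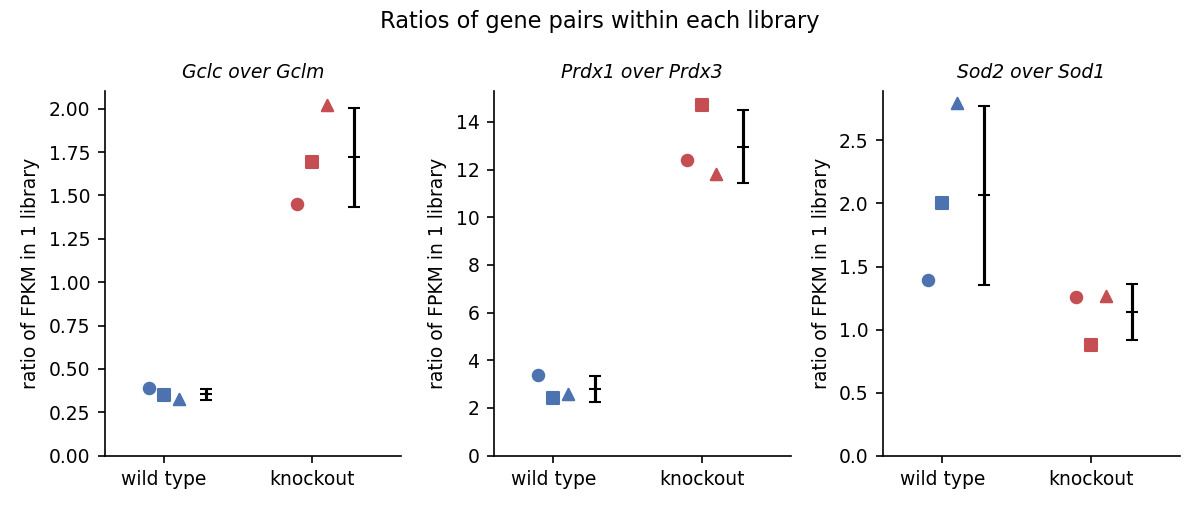
Ratio of the FPKM of 2 genes within each library (y axis) for Gclc over Gclm, Prdx1 over Prdx3 and Sod2 over Sod1, in the wild type (blue) and knockout (red) libraries, with a marker shape for each replicate number and the mean ± SD (n = 3) beside the points. Gclc over Gclm is 0.326 to 0.388 in the wild type libraries and 1.45 to 2.02 in the knockout libraries.

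Nqo1, a quinone reductase and a widely used readout of NRF2 activity, was low throughout. It measured 0.5, 0.132 and 0.441 FPKM in the wild type-labelled libraries and 1.21, 1.79 and 1.3 FPKM in the knockout-labelled ones, from 10 to 28 and from 46 to 110 reads. The groups did not overlap. The log2 difference was 0.84 (SE 0.16, limma adjusted p = 0.0032). It was 1.84 with a pseudocount of 0.1, 0.37 after quantile normalization (adjusted p = 0.058) and -0.01 after the trend on GC content and length was removed (adjusted p = 0.95). The call of Nqo1 therefore depended on how the values were treated.

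The order of the levels changed between the groups. FPKM is scaled by exon length, and the lengths that fit the values are those of all annotated exons of a gene joined, from 1051 bases for Txn1 to 10008 for Sod2. In the wild type-labelled libraries Gclc was highest with a mean of 35 FPKM, then Prdx1 (17.7 FPKM), Sod2 (15.2 FPKM), Sod1 (7.72 FPKM), Prdx3 (6.34 FPKM), Txn1 (6.04 FPKM), Txnrd1 (3.83 FPKM), Prdx4 (1.39 FPKM) and Nqo1 (0.358 FPKM). The ranges of Prdx1 and Sod2 overlapped, as did those of each neighbouring pair from Sod1 to Txnrd1. In the knockout-labelled libraries Prdx1 was highest (339 FPKM), then Gclc (98.4 FPKM), Prdx4 (26.1 FPKM), Prdx3 (25.9 FPKM), Txn1 (23.1 FPKM), Txnrd1 (10.5 FPKM), Sod2 (8.07 FPKM), Sod1 (7.15 FPKM) and Nqo1 (1.43 FPKM). There the ranges of Prdx4 and Prdx3 overlapped, as did those of Prdx3 and Txn1 and those of Sod2 and Sod1. Prdx4 had moved from the eighth to the third place and Sod2 from the third to the seventh.

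Base composition of the transcripts moved with both the levels and the differences. Of the listed redox genes with a usable row and a known transcript, 40 of 50 with under 50% GC had a mean of at least 1 FPKM, against 7 of 46 with 50% GC or more. Prdx5 (56.4% GC) and Prdx2 (50.4% GC) are among the latter, as are the glutathione peroxidases Gpx1 (57.2% GC), at 0 to 0.364 FPKM, and Gpx4 (60.2% GC), at 0 to 0.044 FPKM. Among all tested genes, 44.8% of those with 45 to 50% GC were called higher, against 21.3% of those under 45% GC. Prdx3, Prdx4, Txn1, Txnrd1, Sod1, Gclc and Nqo1 have 45.5% to 49.7% GC. Prdx1 has 42.3% GC and Sod2 42.2% GC. The part of base composition in the differences of the members and in the low values of Prdx5 was not tested.

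**Figure D4:**
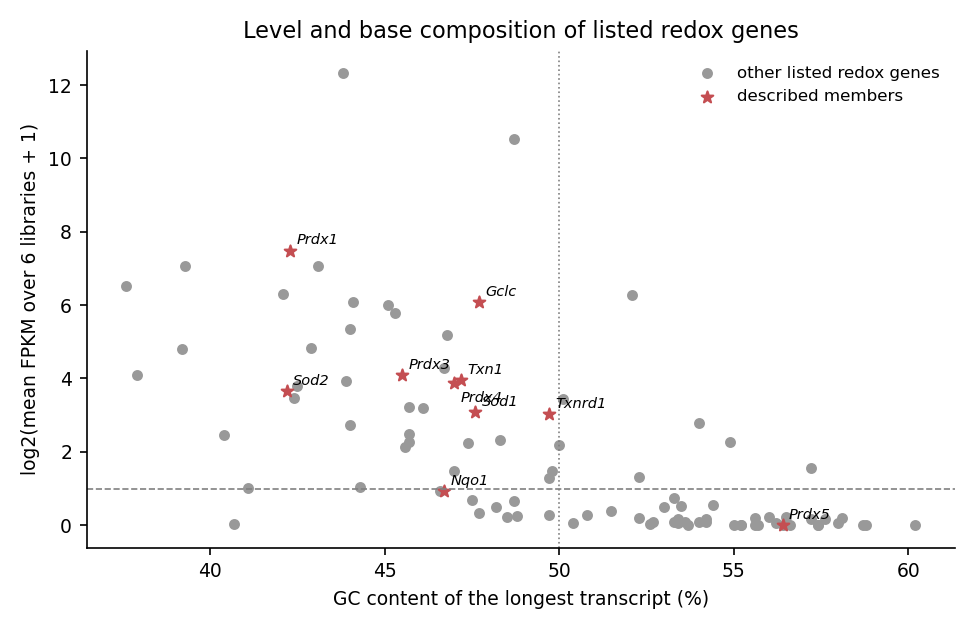
Mean FPKM over the 6 libraries as log2(mean + 1) (y axis) against the GC content of the longest transcript (x axis, %), for the 10 members (red stars) and the other listed redox genes (grey). The dashed line marks a mean of 1 FPKM and the dotted line 50% GC, to the right of which 7 of 46 genes reach 1 FPKM.

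Beyond the members, 8 redox lists held 105 other genes, of which 87 had a usable row and 38 were tested. Of these 38, 19 were higher, 7 lower and 12 not called, beside 33.7% higher and 20.4% lower of all tested genes. In the thioredoxin and glutaredoxin list 4 of 7 tested non-members rose and none fell. Glrx3, an iron-sulfur glutaredoxin, rose from 1.47 ± 0.386 to 7.77 ± 1.56 FPKM (limma adjusted p = 0.00029), and Txnl1, a thioredoxin-like protein bound to the proteasome, from 18.8 ± 4.13 to 35.1 ± 5.37 FPKM (limma adjusted p = 0.0084). Txnip, the inhibitor of thioredoxin, measured 4.77 ± 0.819 and 3.23 ± 1.01 FPKM and was not called (limma adjusted p = 0.11). It was called lower, at -0.62, without knockout replicate 1 (adjusted p = 0.049), and at -0.75 to -1.12 after median centring, quantile normalization or removal of the trend. Txndc17, a thioredoxin-like protein, measured 5.02 ± 1.55 and 6.39 ± 0.526 FPKM and was not called either (limma adjusted p = 0.22).

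Catalase (Cat), which breaks down hydrogen peroxide in peroxisomes, was the most abundant gene of the removal list and fell. It measured 1926, 1845 and 1979 FPKM in the wild type-labelled libraries and 1103, 1002 and 1080 FPKM in the knockout-labelled ones. Replicates agreed closely and the groups stood far apart. Catalase had a log2 difference of -0.85 (SE 0.17, limma adjusted p = 0.0043), and -1.64 after the trend on GC content and length was removed (adjusted p = 0.00067). With Sod2 it made 2 falls among the 3 tested genes of that list, Sod1 being the third, beside 20.4% lower of all tested genes. Gpx8, a glutathione peroxidase of the endoplasmic reticulum, was under the filter at 0.567 ± 0.292 and 1.56 ± 0.723 FPKM.

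In the glutathione list, glyoxalase 1 (Glo1), which uses glutathione to detoxify methylglyoxal, rose from 4.60 ± 1.08 to 11.8 ± 1.94 FPKM (limma adjusted p = 0.0017). Chac2, a glutathione-degrading cyclotransferase, fell from 109 ± 5.8 to 73.7 ± 7.14 FPKM (limma adjusted p = 0.02), a call lost without wild type replicate 2 (adjusted p = 0.057) or knockout replicate 3 (adjusted p = 0.079). Glutathione reductase (Gsr) measured 8.51 ± 0.344 and 11.3 ± 1.72 FPKM and was not called (limma adjusted p = 0.094). Removal of the trend on GC content and length gave Gsr a negative difference, -0.48 (adjusted p = 0.046). Of the other named genes, Ggct measured 0.245 ± 0.103 and 1 ± 0.3 FPKM and was under the filter.

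Of genes around NRF2, 3 of 7 tested non-members were higher and 1 lower, beside 33.7% higher and 20.4% lower of all tested genes. Nfe2l2, which encodes NRF2 itself, fell, with 40.1, 49.6 and 56.5 FPKM in the wild type-labelled libraries and 28.2, 19.4 and 17.6 FPKM in the knockout-labelled ones. The groups did not overlap, and the log2 difference was -1.14 (SE 0.22, limma adjusted p = 0.0035). Sqstm1, an autophagy receptor that binds the NRF2 inhibitor KEAP1, rose from 0.495 ± 0.302 to 11.2 ± 2.84 FPKM (limma adjusted p = 9.7e-05). The UDP-glucose dehydrogenase Ugdh rose from 15.7 ± 1.42 to 38.8 ± 4.82 FPKM (limma adjusted p = 0.00065). The ferritin heavy chain Fth1 rose from 0.572 ± 0.407 to 6.48 ± 3.33 FPKM (limma adjusted p = 0.00086), a log2 difference of 2.19, or 3.34 with a pseudocount of 0.1. Sqstm1 reached 1 FPKM in the knockout-labelled libraries alone, and Fth1 in those and in wild type replicate 1 (1.04 FPKM). Both genes thus passed the filter through the knockout-labelled libraries. Bach1, a repressor that competes at the same elements, measured 22.7 ± 2.52 and 14.4 ± 6.3 FPKM (limma adjusted p = 0.061), with knockout replicate 1 at 21.6 FPKM and the other two at 9.86 and 11.7 FPKM. Without knockout replicate 1, Bach1 was called lower (-1.01, adjusted p = 0.0038), as it was after median centring (-0.98, adjusted p = 0.023) and after trend removal (-0.99, adjusted p = 0.019).

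**Figure D5:**
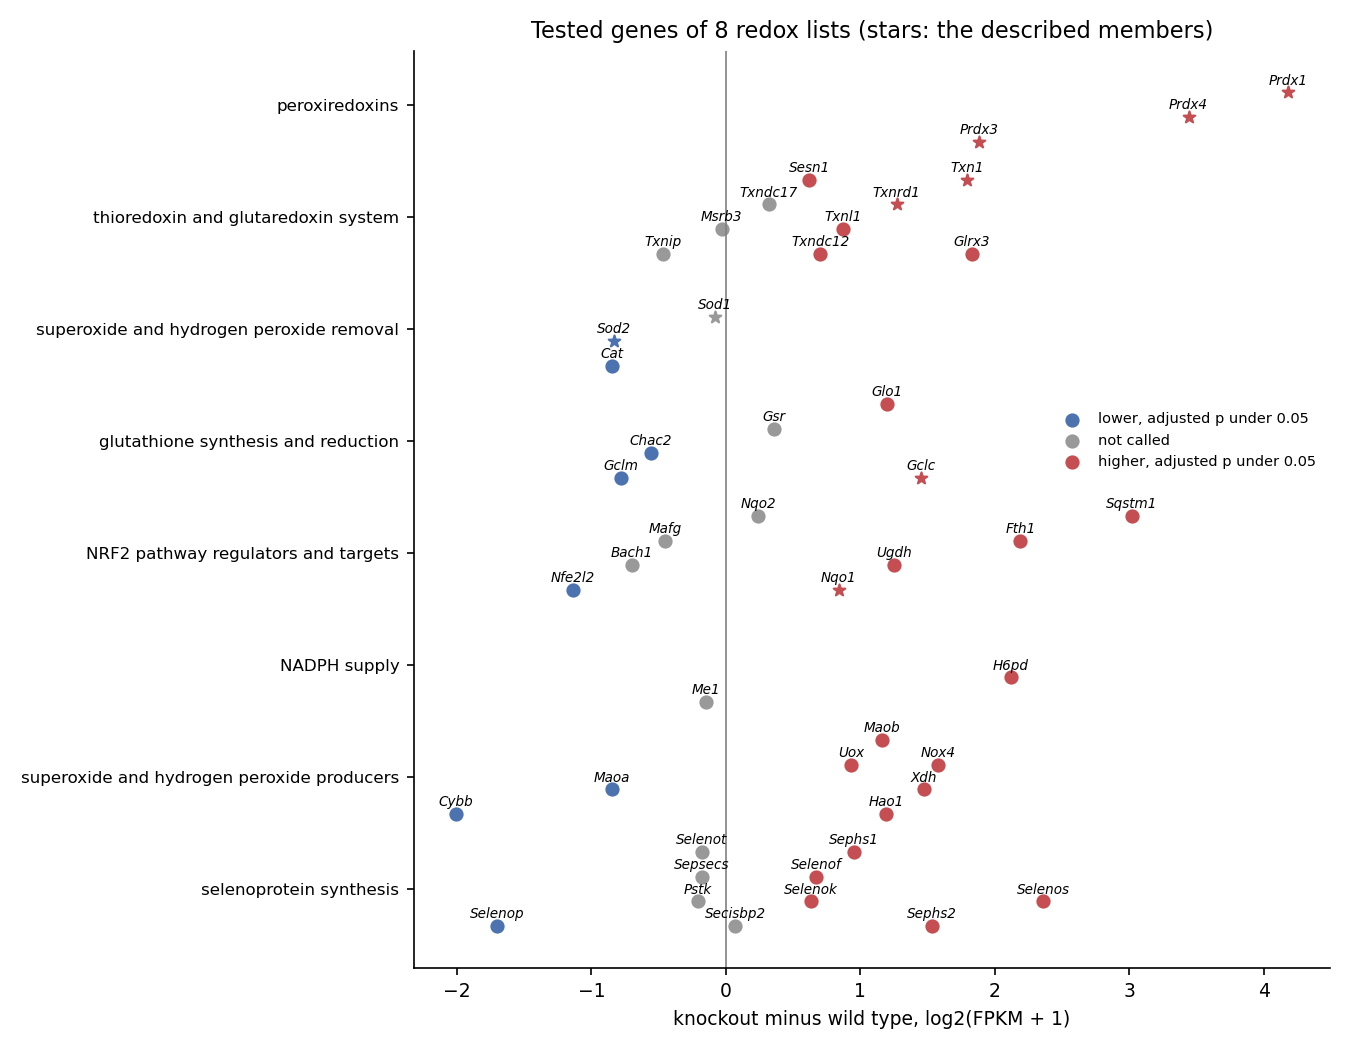
Log2 difference, knockout minus wild type on the log2(FPKM + 1) scale (x axis), of every tested gene of the 8 redox lists (rows), with members as stars, red for called higher, blue for called lower and grey for not called; the height within a row only separates the points. Prdx1 and Prdx4 lie farthest to the right, and Cybb, Selenop and Nfe2l2 farthest to the left.

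Of NADPH supply, 2 genes were tested. H6pd, the hexose-6-phosphate dehydrogenase of the endoplasmic reticulum, rose from 0.092 ± 0.0534 to 3.79 ± 0.786 FPKM (limma adjusted p = 8.6e-05), and it reached 1 FPKM in the knockout-labelled libraries alone. Its log2 difference was 2.12, or 4.37 with a pseudocount of 0.1. The malic enzyme Me1 measured 65.8 ± 1.54 and 60.2 ± 14.5 FPKM and was not called (limma adjusted p = 0.54). Nnt, the mitochondrial transhydrogenase, was under the filter at 0.623 ± 0.13 and 0.349 ± 0.16 FPKM.

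Among 7 tested genes that produce superoxide or hydrogen peroxide, 5 rose and 2 fell, beside 33.7% higher and 20.4% lower of all tested genes. Cybb, the catalytic subunit of the phagocyte NADPH oxidase, fell from 16.7 ± 3.55 to 3.42 ± 0.947 FPKM (limma adjusted p = 0.00032). Nox4, an NADPH oxidase that releases hydrogen peroxide, rose from 7.52 ± 1.3 to 24.8 ± 5.96 FPKM (limma adjusted p = 0.00074). The purine oxidase Xdh rose from 0.286 ± 0.219 to 2.62 ± 0.945 FPKM (limma adjusted p = 0.001) and reached 1 FPKM in the knockout-labelled libraries alone. Of the peroxisomal oxidases, Hao1 rose from 40 ± 6.04 to 93.3 ± 18.6 FPKM (limma adjusted p = 0.0021) and Uox from 89.9 ± 2.42 to 178 ± 53.3 FPKM (limma adjusted p = 0.013), a call that median centring ended (adjusted p = 0.06). Maob, a monoamine oxidase of the outer mitochondrial membrane, rose from 33.8 ± 12.5 to 75.2 ± 18.8 FPKM (limma adjusted p = 0.0097). Trend removal lowered the log2 difference of Hao1 from 1.19 to 0.79 and that of Maob from 1.16 to 0.72, both still called. With a pseudocount of 0.1 that of Xdh was 2.90 instead of 1.47.

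Thioredoxin reductase is a selenoprotein. A further list held other selenoproteins and genes for their synthesis, without Txnrd1, and of its 10 tested genes 5 rose and 1 fell. Of all tested genes 33.7% were higher and 20.4% lower. Sephs2, which makes the selenium donor, rose from 38.9 ± 8.77 to 113 ± 11.1 FPKM (limma adjusted p = 0.00072) and its paralogue Sephs1 from 2.31 ± 0.566 to 5.34 ± 0.139 FPKM (limma adjusted p = 0.0026). After trend removal the log2 difference of Sephs2 was 0.58 instead of 1.53, at an adjusted p of 0.05. Selenos, an endoplasmic reticulum selenoprotein, rose from 0.491 ± 0.186 to 6.94 ± 2.64 FPKM (limma adjusted p = 0.00032), again at 1 FPKM or more in the knockout-labelled libraries alone. Its log2 difference of 2.36 was 1.44 after trend removal and 3.55 with a pseudocount of 0.1. Selenop, the plasma selenium carrier made by the liver, fell, with 5409, 7683 and 10506 FPKM in the wild type-labelled libraries and 2198, 2406 and 2429 FPKM in the knockout-labelled ones (limma adjusted p = 0.0012). Selenof, of the endoplasmic reticulum, measured 30.4 ± 5.6 and 48.7 ± 6.57 FPKM (limma adjusted p = 0.02), a call lost without wild type replicate 3 (adjusted p = 0.068) or knockout replicate 2 (adjusted p = 0.073), without a filter (adjusted p = 0.053), after median centring (adjusted p = 0.12) and after trend removal (0.55, adjusted p = 0.05). Selenot measured 140 ± 17.7 and 124 ± 15 FPKM and was not called (limma adjusted p = 0.44).

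Markers of the cell types in a liver piece moved with the groups too. In bulk samples, fewer cells of a type and less RNA per cell cannot be told apart. The summed FPKM of 7 hepatocyte markers was 399 to 591 in the wild type-labelled libraries and 1293 to 2141 in the knockout-labelled ones, with 4 of 6 tested markers higher. All 4 tested endothelial markers and all 3 tested stellate cell markers were lower, with sums of 16 to 17.6 against 9.23 to 11.1 FPKM and 76.1 to 130 against 21.3 to 32.2 FPKM. Of all tested genes 33.7% were higher and 20.4% lower. Markers of these lists under the filter were not all lower. Stab2, Clec4g, Pecam1 and Col1a1 had knockout means of 0.0831, 0.545, 0.0837 and 0.052 FPKM. Their wild type means were 0.0469, 0.199, 0 and 0.026 FPKM. Pdgfrb had a knockout mean of 0.00462 FPKM and a wild type mean of 0.011 FPKM. Of 4 tested Kupffer cell markers 2 were lower, and the sum over 6 markers was 22.3 to 40 FPKM against 13.6 to 56.1 FPKM. The sums stayed at 0.965 FPKM or less for 2 lymphocyte markers and at 1.65 FPKM or less for 5 erythroid markers. For 4 cholangiocyte markers the sum was 50.3 to 68 against 29.3 to 50.9 FPKM. Most of it was Spp1, which was not called (limma adjusted p = 0.094). Sox9, the other tested marker, was higher at 1.81 against 0.752 FPKM (limma adjusted p = 0.019). Among the wild type-labelled libraries only replicate 2 reached 1 FPKM of Sox9 (1.05 FPKM), so Sox9 passed the filter through the knockout-labelled ones. The 7 kidney markers summed to at most 0.171 FPKM in the wild type-labelled libraries and to 4.27 FPKM or more in every knockout-labelled one, with 5272 FPKM in knockout replicate 1. Nearly all of it was Kap, at 5264, 4.18 and 5.72 FPKM in the knockout-labelled libraries and at most 0.0785 FPKM in the wild type-labelled ones. Knockout replicate 1 was the lowest of its group for 4 members, Prdx3, Txn1, Sod1 and Nqo1, and without it the log2 difference was 3.53 for Prdx4, 1.94 for Prdx3, 1.96 for Txn1, 1.51 for Gclc and 0.91 for Nqo1, each still called. The part of the other cell types in the differences of the members was not tested.

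By the mean log2(FPKM + 1) over the 10 members, the wild type-labelled libraries stood at 2.74, 2.55 and 2.52 and the knockout-labelled ones at 3.88, 4.11 and 4.01. Of 5644 other tested genes (further rows of repeated small RNA symbols left out), 1099 had a Pearson's r of at least 0.95 with this mean over the 6 libraries, so a like pattern was common. The 5 genes with the highest r (0.9992 to 0.9997) were Tnpo3, a nuclear import receptor, Hdgf, a growth factor, Vps26b, a retromer subunit, the zinc finger gene Zfp426 and Mfsd4b3-ps. All of them but Hdgf reached 1 FPKM in the knockout-labelled libraries alone. Hdgf reached it in those and in wild type replicate 1 (1.11 FPKM). All 5 thus passed the filter through the knockout-labelled libraries, which favours such a likeness. Hdgf measured 0.756 ± 0.311 and 20.7 ± 3.66 FPKM, and Tnpo3 0.185 ± 0.0697 and 1.49 ± 0.169 FPKM. The 6 libraries fall into 2 separate groups, and this likeness is a description of them.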

How the data were processed

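The authors deposited 1 table of FPKM values per library, and per the file headers each row has a gene identifier next to a symbol. Per the submitters' processing notes, HISAT2 and GRCm39 were used; for the counting tool, annotation and versions, the sources used here name nothing. Libraries were grouped by the labelled genotype (3 and 3). The header of knockout replicate 3 carries another sample code than its title, and the label was used. The labels do not state that the libraries are separate animals, and p-values here cover only the spread among these 6, which may be technical.

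Identifier and symbol named the same gene in 0 of 24927 rows. When exon lengths were looked up by symbol in GENCODE M21 (GRCm38), FPKM times length was a whole multiple of a fixed step, to within 0.15 read and up to 40 reads, in 98.9% of 43485 low values, which also gave the depth. For the chromosome 1 block, 1787 rows, that share was 35.81%. Symbols were used, and that block and 127 rows without a symbol were left out; some listed genes are not reported here. The test was limma 3.58.1 (R 4.3.3; trend, robust, genotype as the sole term) on log2(FPKM + 1), for genes reaching 1 FPKM in 3 or more libraries. Fold changes on this scale understate the change of low genes, and ratios are of group means in FPKM. The fit was also run on simulated libraries with upward changes in a small share of genes, which cannot show how it behaves on these data. Differences are knockout-labelled libraries minus wild type-labelled libraries.

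The members, lists and rules were chosen with earlier results of these data known. Named from each list were up to 4 called genes with the smallest adjusted p and up to 2 more with the highest mean FPKM, and the 5 genes most like the members' mean. Gpx1 and Gpx4, the gene ratios and the Gclm promoter were chosen after values were seen. Alternatives were a pseudocount of 0.1, no filter, 10 FPKM in 3 libraries, no robust moderation, centring on the median, quantiles made equal between libraries, a loess trend on GC and exon length subtracted per library (5539 genes), a replicate block, leaving out each library, an adjusted p under 0.01 and, added after seeing the data, a filter on the mean. Other steps used Python 3.11.15, numpy 2.4.6, pandas 2.3.3 and matplotlib 3.10.9.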

Additional observations from a re-analysis of the deposited data

How the results depend on the processing

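The count of members called higher was 7 and stayed between 5 and 7 under every alternative, and the count called lower was 1 under all but 1 of them, 2 (Sod1 and Sod2) after removal of the GC and length trend. The count called higher was 5 at 10 FPKM in 3 libraries, where Txnrd1 and Nqo1 were not tested. It was 6 with the filter on the mean, where Nqo1 was not tested. After quantile normalization and after trend removal it was 6, since Nqo1 was tested and not called. Leaving out 1 library at a time gave 7 higher and 1 lower each time. Over all tested genes, leaving out 1 library gave 1575 to 1959 higher and 819 to 1123 lower. The higher genes numbered 3171 without a filter and 468 at 10 FPKM in 3 libraries, both from another number of genes tested. The lower genes numbered 559 at 10 FPKM, 1891 after median centring, 1761 after quantile normalization and 656 at an adjusted p under 0.01. For the 9 tested members, 127 of 131 alternative values kept direction and call; the others are Sod1 (-0.56 after trend removal, 0.11 without wild type replicate 1, with leave-one-out values from -0.18 to 0.11) and Nqo1 (0.37 after quantile normalization, -0.01 after trend removal). For the 33 other named genes, 460 of 480 kept both. In both sets, other filters, no robust moderation and the replicate block leave the log2 difference unchanged, so only the call could move there. Of the other named genes, 3 changed sign. Trend removal gave Txndc17 -0.37, Gsr -0.48 and Selenot 0.07. The cause of these changes was not tested. With the replicate number as a block, 1740 genes were higher and 1031 lower, with 7 and 1 of the members. The deviations of same-numbered libraries from their group means correlated at -0.049, -0.096 and 0.181. Not every library correlated best with its own number. With so few libraries these values cannot decide whether the numbers pair the samples. In the wild type-labelled libraries the values of Nqo1 rest on only 10 to 28 reads, and the part of this in its changes was not tested.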
